A study of Mus musculus with 9 samples.

Results

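Messenger RNA levels of 10 genes of the circadian clock were followed in the mouse uterus after oral exposure to bisphenol B (BPB) or bisphenol AF (BPAF). The genes are Arntl, Clock, Npas2, Per1, Per2, Per3, Nr1d1, Nr1d2, Dbp and Tef. They were selected by symbol, 10 of the 34619 unique symbols in the deposited tables, and each was found in all 9 libraries. Wild-type female mice of the CD-1 (ICR) stock, bought at 7 to 8 weeks of age and acclimatized for 1 week under light-dark cycles of 12 h, ate food free of estrogens. One group received BPB and one BPAF, by gavage, at a daily dose of 300 µg per kg of body weight over 28 days. The control group received corn oil, the vehicle, for the same 28 days. Each group has 3 libraries of uterus RNA, numbered 1 to 3 in the titles. Nothing in the labels says that the libraries come from separate animals, so the p-values measure only the spread between these samples. Neither the time of day nor the stage of the estrous cycle at collection is in the labels, so each value is a level at an hour that is not known.

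The clock of a mammalian cell is a transcriptional feedback loop that runs in most tissues, the uterus included. ARNTL (also called BMAL1) pairs with CLOCK or with its relative NPAS2 and switches on genes that carry E-box sequences. Among these genes are Per1, Per2 and Per3, whose proteins act with the cryptochromes to shut the pair down, and Nr1d1 and Nr1d2, which encode the REV-ERB alpha and beta receptors that bind heme and repress Arntl. Dbp and Tef encode PAR bZIP factors, transcription factors that act on D-box sequences and carry the rhythm to output genes. In rodent tissues Nr1d1 and Dbp are among the genes with the widest daily swings.

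The promoters of the 5 members that stood higher in every exposed library than in any control library (below) are shown because the clock acts through short elements of this kind. Each window is the 250 bases before the RefSeq start on GRCm38.p6, written 5′ to 3′ on the strand of the gene, with element letters in capitals. Nr1d1 lies at chr11:98775378-98775627 (minus strand), Nr1d2 at chr14:18239107-18239356 (minus strand), Dbp at chr7:45704997-45705246 (plus strand), Tef at chr15:81802423-81802672 (plus strand, the first of its 2 windows) and Per3 at chr4:151044666-151044915 (minus strand).
Nr1d1: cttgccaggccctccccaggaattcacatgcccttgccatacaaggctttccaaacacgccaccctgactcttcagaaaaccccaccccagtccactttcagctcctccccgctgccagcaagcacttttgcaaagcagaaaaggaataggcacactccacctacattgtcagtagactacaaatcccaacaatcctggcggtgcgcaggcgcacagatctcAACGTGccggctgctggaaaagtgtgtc
Nr1d2: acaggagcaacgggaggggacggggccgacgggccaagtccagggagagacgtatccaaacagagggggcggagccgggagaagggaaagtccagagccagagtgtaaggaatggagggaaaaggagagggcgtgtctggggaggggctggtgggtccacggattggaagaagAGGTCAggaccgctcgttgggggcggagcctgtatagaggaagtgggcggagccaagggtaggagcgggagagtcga
Dbp: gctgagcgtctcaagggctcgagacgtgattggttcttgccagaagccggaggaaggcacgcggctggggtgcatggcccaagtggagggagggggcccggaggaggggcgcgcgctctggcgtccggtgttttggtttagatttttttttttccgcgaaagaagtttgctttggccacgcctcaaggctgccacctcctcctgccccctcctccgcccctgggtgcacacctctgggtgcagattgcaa
Tef: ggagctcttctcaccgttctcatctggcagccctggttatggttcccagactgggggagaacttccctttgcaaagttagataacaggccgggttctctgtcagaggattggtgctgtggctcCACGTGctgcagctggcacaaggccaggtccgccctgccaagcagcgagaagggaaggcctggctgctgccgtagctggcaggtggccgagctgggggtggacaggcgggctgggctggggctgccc
Per3: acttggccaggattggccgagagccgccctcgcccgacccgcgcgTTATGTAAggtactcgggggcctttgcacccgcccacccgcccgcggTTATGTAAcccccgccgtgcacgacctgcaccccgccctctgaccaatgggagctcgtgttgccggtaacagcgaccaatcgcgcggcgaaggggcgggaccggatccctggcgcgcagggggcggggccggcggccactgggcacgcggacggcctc

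The capitals mark the E-box CACGTG in Tef, the E-prime box CACGTT read on the opposite strand (AACGTG) in Nr1d1, the D-box TTANGTAA as TTATGTAA in Per3, and AGGTCA, the core letters of the ROR element that REV-ERB and ROR receptors bind, in Nr1d2. Both strands were searched, and none of the marked matches overlaps another. Counted from the start, the match begins at -28 in Nr1d1, at -77 in Nr1d2 and at -127 in the Tef window shown, and Per3 carries its D-box letters at both -205 and -158. Of the 9 members with a window, the E-box letters were found in 2 (Per1 and Tef), the E-prime letters in 1, the D-box letters in 1 and the ROR core letters in 3 (Clock, Per1 and Nr1d2). None of the searched letters was in the windows of Arntl, Npas2 or Dbp. Among 32851 windows of the same length in the RefSeq table, 6.02% held the E-box, 3.85% the E-prime box, 2.06% the D-box and 14% the ROR core. These shares are per single window. The 9 members have 14 windows, and a member is counted if any of its windows holds the letters, so counts and shares are unlike measures. A match is a description of letters in a window and does not show a bound site.

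Levels are given in FPKM, read fragments scaled to gene length and to the library total, and differences as the difference in log2(FPKM + 1), exposed minus control. Each gene was tested with limma over 13743 genes that reached 1 FPKM in at least 3 libraries, and a gene was called at a Benjamini-Hochberg adjusted p under 0.05. The totals behind the scaling, read from the smallest steps of the values, ran between 12620196 and 15616775 in the 9 libraries. The 6 uterus markers (Esr1, Pgr, Hoxa10, Hoxa11, Wnt7a and Foxa2) were above 0 in every library, and none was called in any comparison. Their levels still differed between groups. Pgr, the progesterone receptor gene, averaged 14.3 ± 7.32 FPKM in BPB, 19.7 ± 9.37 FPKM in BPAF and 46.6 ± 12.1 FPKM in controls (SD, n = 3 each), and every exposed library lay below every control. Its difference was -1.71 for BPB and -1.26 for BPAF (adjusted p = 0.0672 and 0.304, limma). Groups were also apart for Esr1 (lower) and Hoxa10 (higher) in BPB and for Hoxa11 and Foxa2 (higher) in BPAF. Markers of urothelium, the lining of the bladder, set libraries apart: the 10 listed genes summed to between 1702 and 2708 FPKM in the BPB libraries, to 1434, 5.44 and 12.7 FPKM in BPAF libraries 1, 2 and 3, and to between 6.10 and 9.92 FPKM in the controls. No marker of that list was at 0 in any BPB library or in BPAF library 1, against 2 and 5 of them in BPAF libraries 2 and 3 and 2 or 3 in each control. All 10 were called higher in BPB. Summed FPKM of 6 smooth muscle markers ran between 6526 and 10458 in BPB, between 956 and 3117 in BPAF and between 3120 and 5036 in the controls. Of 4 skeletal muscle markers tested, Ckm and Myh2 were called higher in BPB, and the summed level of the 5 listed ran between 193 and 489 FPKM in BPB, between 10.2 and 110 FPKM in BPAF and between 68.6 and 151 FPKM in the controls. The 5 adipocyte markers summed to 685, 182 and 38.8 FPKM in BPB libraries 1, 2 and 3, to 540, 0.340 and 230 FPKM in the BPAF libraries, and to between 67.6 and 73.2 FPKM in the controls. The part of these tissue markers in the members' differences was not tested. The 13 mitochondrial protein genes took 34.1% of the FPKM sum in control library 3, against 14.0% and 14.1% in the other controls and between 19.6% and 27.0% in the exposed libraries. In such bulk samples, fewer cells of a type and less RNA per cell cannot be told apart.

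Nr1d1, Nr1d2 and Dbp were called higher in BPB than in controls, and no other member was called. The 3 called members of 10 stand beside a background of 2.55% of all genes called for BPB against control, and of 2.05% called higher. For BPAF against control no member was called, beside a background of 0.0218%, which is 3 genes. At an unadjusted p under 0.05, 5 of the 10 members passed for BPB and 5 for BPAF, beside 17.4% of all genes for BPB and 12.8% for BPAF. The same 5 members, Per3, Nr1d1, Nr1d2, Dbp and Tef, were higher in all 3 BPB libraries than in any control, and also in all 3 BPAF libraries than in any control. Complete separation upward held for 19.5% of all genes in BPB and for 14.3% in BPAF. The median difference of the 10 members was 0.80 for BPB, beside 0.15 over all genes, and 0.85 for BPAF, beside 0.21 over all genes. The members were chosen with earlier results of these data known, so these counts and medians beside all genes are descriptions, not a test. Both exposures share the same 3 control libraries, so a control value enters both differences. All 10 members passed the filter on low values. Per3 reached 1 FPKM in 7 libraries, Tef in 8 and the others in 9.

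**Figure D1:**
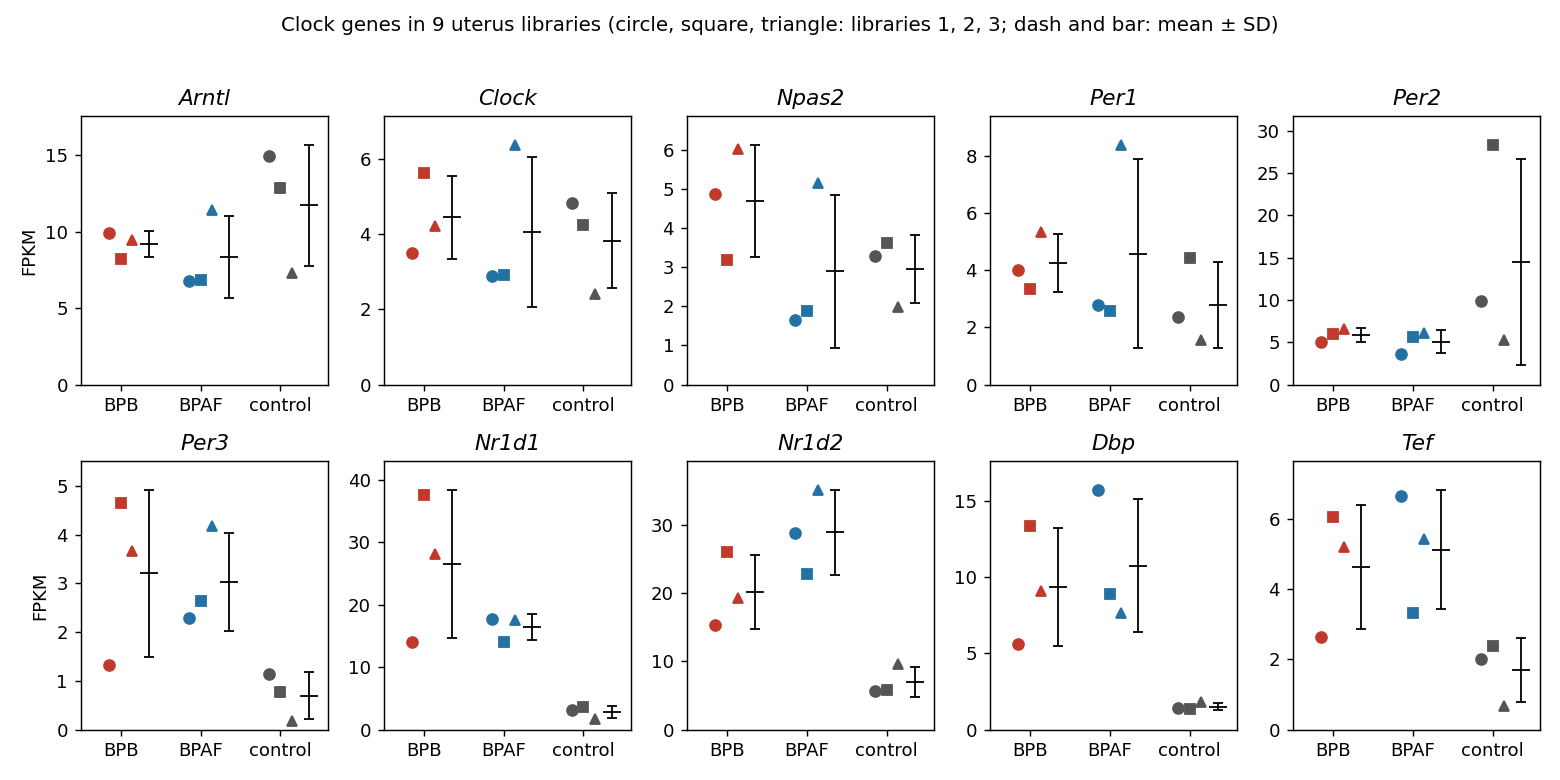
FPKM of each member (vertical axis, from 0) in the BPB, BPAF and control libraries, with a symbol per library number and a dash and bar for the mean ± SD (n = 3). Nr1d1, Nr1d2, Dbp, Tef and Per3 stood above every control in all exposed libraries, while Arntl, Clock, Npas2, Per1 and Per2 overlapped.

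Nr1d1, which encodes the repressor REV-ERB alpha, had 14.0, 37.6 and 28.1 FPKM in BPB libraries 1, 2 and 3, 17.8, 14.1 and 17.5 FPKM in the BPAF libraries, and 3.22, 3.60 and 1.65 FPKM in the controls. Every exposed library was well above the highest control, BPB library 1 was low within its group, and the BPAF libraries lay close together. The mean was 26.6 ± 11.8 FPKM in BPB and 2.82 ± 1.03 FPKM in controls (SD, n = 3 each), a ratio of 9.40. On the log2(FPKM + 1) scale Nr1d1 stood 2.79 higher in BPB (SE 0.36, 95% interval 1.97 to 3.61, adjusted p = 0.0144, limma). The call was lost without BPB library 2 (adjusted p = 0.0884), BPB library 3 (0.109) or control library 1 (0.0755), and also with the library number as a replicate block (0.0558). Over 20 alternatives the adjusted p ran between 0.00661 and 0.109. For BPAF the mean was 16.5 ± 2.04 FPKM, 5.83 times the control mean of 2.82 ± 1.03 FPKM (SD, n = 3 each). That difference of 2.23 (95% interval 1.41 to 3.05) had an unadjusted p of 1.50e-04 and an adjusted p of 0.147 in limma, and was not called.

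Nr1d1 shares 263 exon bases on the opposite strand with Thra, the thyroid hormone receptor alpha gene, in GENCODE M21. Whether the authors' counting used the strand is not given, so reads in these bases cannot be told apart. Thra averaged 19.2 ± 3.31 FPKM in BPB, 12.7 ± 1.81 FPKM in BPAF and 10.7 ± 1.42 FPKM in controls (SD, n = 3 each). Its difference was 0.78 for BPB (adjusted p = 0.120, limma) and 0.22 for BPAF (adjusted p = 0.707, limma), neither called. The smallest whole numbers of reads that fit the FPKM of Nr1d1 in all 9 libraries were between 718 and 2054 in each exposed library and between 73 and 175 in each control.

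Nr1d2, which encodes REV-ERB beta, the partner receptor of REV-ERB alpha, had 15.3, 26.0 and 19.2 FPKM in BPB libraries 1, 2 and 3, 28.8, 22.8 and 35.1 FPKM in the BPAF libraries, and 5.68, 5.74 and 9.55 FPKM in the controls. No exposed library reached down to the controls, where library 3 was the highest, and BPAF library 3 held the highest value of all 9. The mean was 20.2 ± 5.42 FPKM in BPB, 2.88 times the control mean of 6.99 ± 2.21 FPKM (SD, n = 3 each). Nr1d2 stood 1.41 higher on the log2(FPKM + 1) scale in BPB (SE 0.29, 95% interval 0.75 to 2.07, adjusted p = 0.0443, limma). This call is close to the threshold: it held in 5 of 20 alternatives, with adjusted p between 0.0433 and 0.185. It was lost with the replicate block (0.0814), without any single BPB or control library and without BPAF library 1, while the difference without 1 library stayed between 1.22 and 1.63. The call was also lost under median-ratio scaling (adjusted p = 0.108, limma), quantile normalization (0.0792) and rescaling without mitochondrial genes (0.0505). Pseudocounts of 0.1 and 0.01, no filter, and a fit of the 6 libraries compared each lost it as well. In BPAF the mean was 28.9 ± 6.16 FPKM, 4.13 times that of the controls. The difference of 1.92 (95% interval 1.26 to 2.58) had an unadjusted p of 8.78e-05 and an adjusted p of 0.134 in limma.

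Dbp, which encodes the D-box binding factor that drives clock output genes, had 5.65, 13.4 and 9.11 FPKM in BPB libraries 1, 2 and 3, 15.7, 8.90 and 7.68 FPKM in the BPAF libraries, and 1.41, 1.35 and 1.79 FPKM in the controls. The controls lay close together and far below the lowest exposed library, which was BPB library 1. The mean was 9.37 ± 3.87 FPKM in BPB and 1.52 ± 0.242 FPKM in controls (SD, n = 3 each), a ratio of 6.18. Dbp stood 1.98 higher on the log2(FPKM + 1) scale in BPB (SE 0.34, 95% interval 1.21 to 2.74, adjusted p = 0.0259, limma). The call held in 14 of 20 alternatives, with adjusted p between 0.0110 and 0.137. It was lost with the replicate block (0.0703), without BPB library 2 or 3 (adjusted p = 0.137 each), and without control library 1 (0.0989), 2 (0.0667) or 3 (0.0618). BPAF libraries averaged 10.8 ± 4.33 FPKM, 7.10 times the control mean, a difference of 2.17 (95% interval 1.40 to 2.94, unadjusted p = 1.09e-04, adjusted p = 0.136, limma). Dbp overlaps Sphk2, a sphingosine kinase gene on the opposite strand, over 539 exon bases. Sphk2 averaged 6.25 ± 0.560 FPKM in BPB, 5.35 ± 0.800 FPKM in BPAF and 5.32 ± 1.42 FPKM in controls (SD, n = 3 each).

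Tef, which encodes thyrotroph embryonic factor, a PAR bZIP relative of Dbp, had 2.65, 6.06 and 5.20 FPKM in BPB libraries 1, 2 and 3, 6.66, 3.31 and 5.42 FPKM in the BPAF libraries, and 2.02, 2.39 and 0.66 FPKM in the controls. The groups did not overlap, but BPB library 1 and control library 2 lay near each other. The mean was 4.64 ± 1.78 FPKM in BPB, 5.13 ± 1.70 FPKM in BPAF and 1.69 ± 0.910 FPKM in controls (SD, n = 3 each). The difference was 1.08 for BPB (95% interval 0.24 to 1.91, adjusted p = 0.174, limma) and 1.21 for BPAF (95% interval 0.38 to 2.05, adjusted p = 0.304, limma). Neither was called.

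Per3, the period gene least tied to the core loop in mice, had 1.32, 4.65 and 3.66 FPKM in BPB libraries 1, 2 and 3, 2.29, 2.64 and 4.17 FPKM in the BPAF libraries, and 1.14, 0.77 and 0.19 FPKM in the controls. BPB library 1 lay just above control library 1, and the other exposed libraries stood clear of the controls. Per3 differed by 1.25 for BPB (95% interval 0.41 to 2.10, adjusted p = 0.124, limma) and by 1.26 for BPAF (95% interval 0.42 to 2.11, adjusted p = 0.301, limma), and was not called. With controls under or near 1 FPKM, this scale understates the ratio of means, which was 4.59 for BPB and 4.34 for BPAF over controls.

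Per1, a period repressor that also responds quickly to light and hormones, had 4.03, 3.35 and 5.36 FPKM in BPB libraries 1, 2 and 3, 2.78, 2.56 and 8.40 FPKM in the BPAF libraries, and 2.38, 4.45 and 1.54 FPKM in the controls. The groups overlapped, and BPAF library 3 was far above the other BPAF libraries. The difference was 0.52 for BPB (95% interval -0.42 to 1.47, adjusted p = 0.580, limma) and 0.48 for BPAF (95% interval -0.46 to 1.42, adjusted p = 0.650, limma).

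Per2, the period repressor central to the loop, had 4.97, 6.03 and 6.52 FPKM in BPB libraries 1, 2 and 3, 3.58, 5.61 and 6.04 FPKM in the BPAF libraries, and 9.90, 28.3 and 5.26 FPKM in the controls. Control library 2 held by far the highest value and control library 3 lay inside the range of both exposed groups. Its difference was -0.89 for BPB (95% interval -1.98 to 0.20, adjusted p = 0.391, limma) and -1.08 for BPAF (95% interval -2.17 to 0.013, adjusted p = 0.397, limma). Without control library 2 the values were -0.28 for BPB and -0.47 for BPAF. Per2 thus lay on the other side of 0 from Per1 and Per3, and none of the 3 period genes was called in either exposure.

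Arntl, the activator that REV-ERB receptors repress, had 9.91, 8.25 and 9.48 FPKM in BPB libraries 1, 2 and 3, 6.79, 6.82 and 11.4 FPKM in the BPAF libraries, and 15.0, 12.9 and 7.31 FPKM in the controls. Controls 1 and 2 were the highest of the 9 libraries, control 3 was lower than all BPB libraries, and the groups overlapped. The difference was -0.27 for BPB (95% interval -0.95 to 0.42, adjusted p = 0.720, limma) and -0.43 for BPAF (95% interval -1.11 to 0.26, adjusted p = 0.569, limma). Either interval leaves room for a lower or a somewhat higher level.

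Clock, the partner of ARNTL, had 3.49, 5.64 and 4.21 FPKM in BPB libraries 1, 2 and 3, 2.89, 2.93 and 6.38 FPKM in the BPAF libraries, and 4.82, 4.25 and 2.42 FPKM in the controls. Its groups overlapped, with differences of 0.19 for BPB (95% interval -0.55 to 0.93) and 0.037 for BPAF (95% interval -0.70 to 0.78) that turn to -0.031 and -0.19 under quantile normalization. Npas2, which can stand in for Clock, had 4.87, 3.18 and 6.04 FPKM in BPB libraries 1, 2 and 3, 1.64, 1.89 and 5.16 FPKM in the BPAF libraries, and 3.30, 3.62 and 1.97 FPKM in the controls. The groups overlapped here too, with a difference of 0.52 for BPB (95% interval -0.31 to 1.34) and of -0.11 for BPAF (95% interval -0.94 to 0.72), neither called in limma (adjusted p = 0.528 and 0.922). The BPAF value of Npas2 lay above 0 without BPAF library 1 (0.11), BPAF library 2 (0.051) or control library 2 (0.013). In BPAF, library 3 was the highest for all 3 activators.

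**Figure D2:**
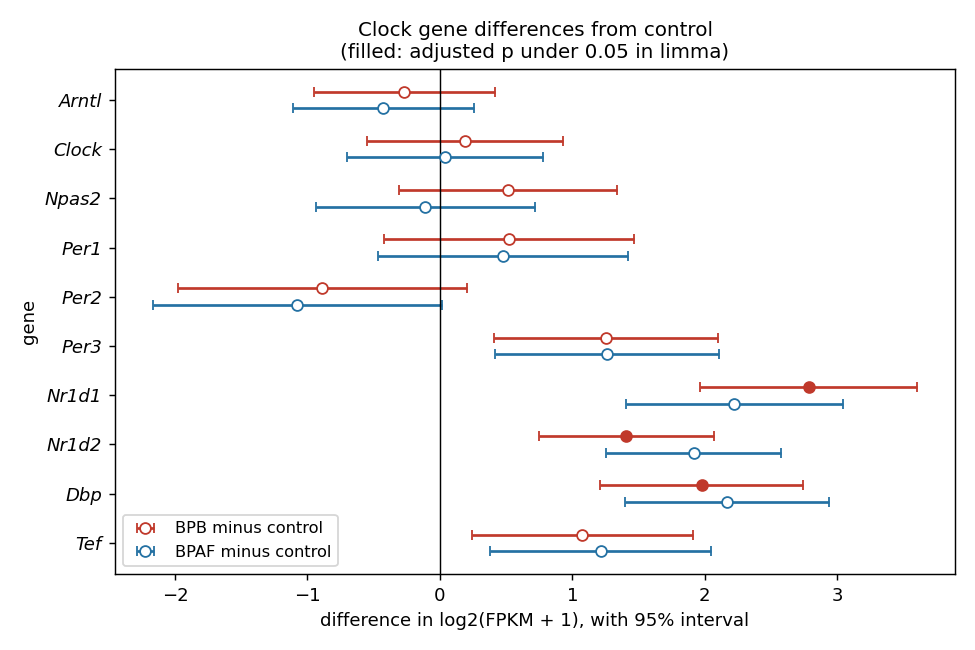
Difference from control in log2(FPKM + 1) (horizontal axis) for each member, BPB above BPAF, with the 95% interval of the limma fit and filled points where the adjusted p was under 0.05. Nr1d1, Nr1d2 and Dbp in BPB are filled, and the intervals of Nr1d1, Nr1d2, Dbp, Tef and Per3 lie above 0 for both exposures.

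The order of the members by level differed between the groups. FPKM is scaled to gene length, so levels of different genes are set beside each other here. The lengths that the authors used are not given, and the ranks depend on them. For Nr1d1 and Arntl, for example, no length that fits the values is a length of the gene in GENCODE M21. In BPB the highest means were those of Nr1d1 (26.6 ± 11.8 FPKM), Nr1d2 (20.2 ± 5.42 FPKM), Dbp (9.37 ± 3.87 FPKM) and Arntl (9.21 ± 0.862 FPKM). In BPAF they were those of Nr1d2 (28.9 ± 6.16 FPKM), Nr1d1 (16.5 ± 2.04 FPKM), Dbp (10.8 ± 4.33 FPKM) and Arntl (8.35 ± 2.67 FPKM). In controls Per2 (14.5 ± 12.2 FPKM) and Arntl (11.7 ± 3.96 FPKM) led, Nr1d1 ranked 6 and Dbp 9 of 10 (SD, n = 3 in each group). Neighbours in these orders whose mean ± SD ranges were apart were Nr1d2 and Dbp and also Arntl and Per2 in BPB, Nr1d2 and Nr1d1 in BPAF, and Dbp and Per3 in controls. All other neighbours, among them Nr1d1 and Nr1d2 in BPB, overlapped. Per3 had the lowest mean in BPB and controls, and Npas2 in BPAF.

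A ratio within each library set the REV-ERB arm against the activator it represses. FPKM of Nr1d1 over FPKM of Arntl was 1.42, 4.55 and 2.96 in BPB libraries 1, 2 and 3, 2.62, 2.07 and 1.54 in the BPAF libraries, and 0.215, 0.280 and 0.226 in the controls. Nr1d1 exceeded Arntl in every exposed library and stayed below it in every control. Nr1d1 alone was above every control in every exposed library, while Arntl overlapped, so the ratio restates the separation of Nr1d1. Which gene is the higher in a library depends on the lengths behind FPKM, which are not given. The mean log2(FPKM + 1) of the 7 repressors and outputs minus that of the 3 activators was -0.057, 0.78 and 0.42 in BPB, 1.03, 0.75 and 0.32 in BPAF, and -0.88, -0.50 and -0.52 in the controls. All exposed libraries lay above all controls on this summary, BPB library 1 nearest to them. Of the 7 genes, 5 (Per3, Nr1d1, Nr1d2, Dbp and Tef) were each above every control already, so the summary largely restates their separation. The ratio and the summary are descriptions with no test, since the members were chosen with earlier results known.

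**Figure D3:**
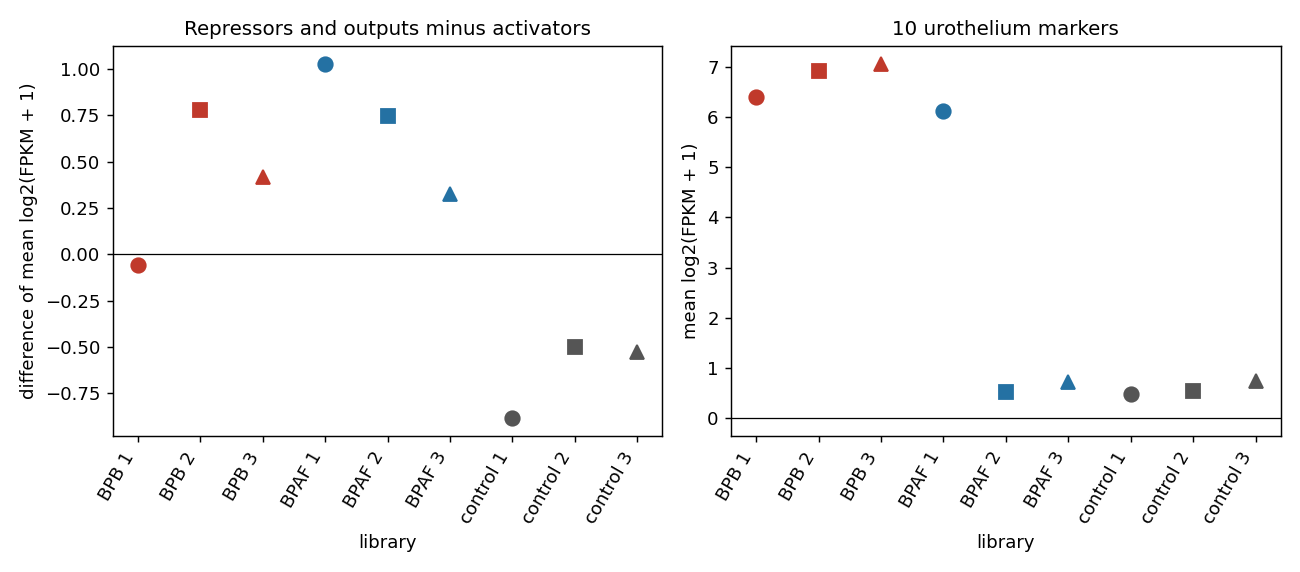
Left, mean log2(FPKM + 1) of 7 repressors and outputs minus that of 3 activators in each library; right, mean log2(FPKM + 1) of 10 urothelium markers in the same libraries. BPAF libraries 2 and 3, at 0.75 and 0.32 on the left, were as low as the controls on the right, at 0.53 and 0.72. Markers of other tissues still differed in these libraries, and the part of tissue markers in the left values was not tested.

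Among the BPB libraries 6 of 10 members shared an order: Clock, Per3, Nr1d1, Nr1d2, Dbp and Tef were highest in library 2, next in library 3 and lowest in library 1. Npas2, Per1, Per2 and Arntl had other orders. The share of all genes in this order was not counted, so it is not shown to be a trait of the members. Arntl ran the other way, highest in library 1 and lowest in library 2, within a narrow range of 8.25 to 9.91 FPKM. In BPAF, 5 members (Arntl, Clock, Npas2, Per2 and Per3) were highest in library 3 and lowest in library 1, while Dbp was highest in library 1 and lowest in library 3.

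Urothelium markers were near the control level in BPAF libraries 2 and 3. The 5 separated members are those above every control in every exposed library, so their place above the controls there follows from that definition. Adipocyte markers still differed in BPAF libraries 2 and 3, at 0.340 and 230 FPKM summed, against 67.6 to 73.2 FPKM in the controls. Smooth muscle markers summed to 2937 and 956 FPKM in the same libraries, against 3120 to 5036 FPKM in the controls. For skeletal muscle markers the sums were 48.1 and 10.2 FPKM, against 68.6 to 151 FPKM in the controls. The part of tissue markers in the members' differences was not tested. With BPAF library 1 left out and only these 2 libraries set against the 3 controls, a choice made after the values were seen, Nr1d1 differed by 2.17 and Nr1d2 by 1.91. Dbp differed by 1.88, Tef by 1.03 and Per3 by 1.39 in the same fit, none called. Leaving out both BPAF library 1 and control library 3 gave 1.93 for Nr1d1, 2.13 for Nr1d2, 1.96 for Dbp, 0.72 for Tef and 1.16 for Per3. For BPB no library is low in urothelium markers, so they and the exposure cannot be told apart.

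BPB and BPAF differ at the carbon that joins their phenol rings, which carries a methyl and an ethyl group in BPB and a pair of trifluoromethyl groups in BPAF. They were given at the same dose for the same time, and 1 pair of compounds was compared. No member was called for BPAF against BPB, and none had groups that did not overlap, beside 13% of all genes with groups apart. None passed an unadjusted p of 0.05 in the fit without pairs, beside 6.75% of all genes. The background for this comparison is 0.24% of genes called, 33 genes, all lower in BPAF, and 0 genes when the library numbers enter the fit as a replicate block. The estimate for Nr1d1, BPAF minus BPB, was -0.56 (95% interval -1.38 to 0.26, adjusted p = 0.939, limma). For Nr1d2 it was 0.51 (95% interval -0.15 to 1.17, adjusted p = 0.895, limma). The estimates were 0.19 for Dbp (95% interval -0.58 to 0.96), 0.14 for Tef (95% interval -0.70 to 0.97) and 0.0072 for Per3 (95% interval -0.84 to 0.85). Npas2 had the lowest estimate of the members, -0.63 (95% interval -1.45 to 0.20, adjusted p = 0.905, limma). Same-numbered BPAF and BPB libraries deviated together. Within these pairs Npas2 and Per2 were lower in BPAF in 3 of 3. Each of the other members was higher in BPAF in 1 or 2. The share of all genes with a single direction in all 3 pairs was not counted, so this does not show a trait of Npas2 or Per2. With the number as a replicate block in the fit of all 9 libraries, the 95% interval was -1.53 to 0.28 for Npas2, -1.47 to 0.35 for Nr1d1, -0.19 to 1.20 for Nr1d2 and -1.27 to 0.89 for Per2, and the lowest adjusted p of a member was 0.960 (Nr1d2, limma). In the 6 BPAF and BPB libraries alone with the block, an alternative chosen after seeing the data, Npas2 had an interval of -1.24 to -0.0082 (unadjusted p = 0.0480, adjusted p = 0.379, limma). It alone among the members passed an unadjusted p of 0.05 there, beside 13.1% of all genes. With 3 libraries each, these intervals reach -1.38 for Nr1d1 and 1.17 for Nr1d2, so the data do not show that the compounds act alike on these genes.

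Of 20 further clock genes listed from textbook roles, 16 passed the filter and none was called by limma in any of the 3 comparisons. At an unadjusted p under 0.05, 5 of the 16 passed for BPB, beside 17.4% of all genes, and 1 for BPAF, beside 12.8%. Their median difference was 0.20 for BPB and 0.28 for BPAF, beside 0.15 and 0.21 over all genes. Cry2, a cryptochrome that works with the period proteins, had 4.90, 8.51 and 6.49 FPKM in BPB libraries 1, 2 and 3, 3.98, 4.54 and 7.07 FPKM in the BPAF libraries, and 3.53, 4.22 and 0.65 FPKM in the controls. Its BPB libraries stood above the controls and its BPAF libraries overlapped them, with a difference of 1.14 for BPB (adjusted p = 0.208, limma) and 0.84 for BPAF (adjusted p = 0.442, limma). Cry1, the other cryptochrome, averaged 8.71 ± 3.27 FPKM in BPB, 7.47 ± 3.35 FPKM in BPAF and 12.2 ± 7.03 FPKM in controls (SD, n = 3 each).

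The ROR receptors activate Arntl through the element that REV-ERB occupies. Rora averaged 3.49 ± 1.29 FPKM in BPB, 2.03 ± 2.15 FPKM in BPAF and 1.37 ± 0.12 FPKM in controls (SD, n = 3 each). For BPB the difference of Rora was 0.88 (adjusted p = 0.370, limma). Hlf, the PAR bZIP relative of Dbp and Tef, had 1.05, 2.24 and 1.0 FPKM in BPB libraries 1, 2 and 3, 0.70, 0.42 and 1.22 FPKM in the BPAF libraries, and 0.11, 0.49 and 0.12 FPKM in the controls. It differed by 0.95 for BPB, where the groups did not overlap (adjusted p = 0.120, limma), and by 0.51 for BPAF, where they did (adjusted p = 0.466, limma). Bhlhe40 encodes DEC1, a repressor of E-box genes, and had 6.66, 13.7 and 4.28 FPKM in BPB, 10.4, 32.5 and 6.23 FPKM in BPAF, and 56.7, 27.4 and 22.7 FPKM in the controls. All BPB libraries lay below all controls, which 6.1% of all genes did, and BPAF library 2 lay among the controls, with differences of -2.01 for BPB (adjusted p = 0.124, limma) and -1.27 for BPAF (adjusted p = 0.411, limma). Ciart, a repressor with a strong daily rhythm, stayed under 1 FPKM and was not tested: it averaged 0.503 ± 0.125 FPKM in BPB and 0.695 ± 0.137 FPKM in BPAF (SD, n = 3 each), against 0.30, 0.22 and 0 FPKM in controls 1, 2 and 3.

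**Figure D4:**
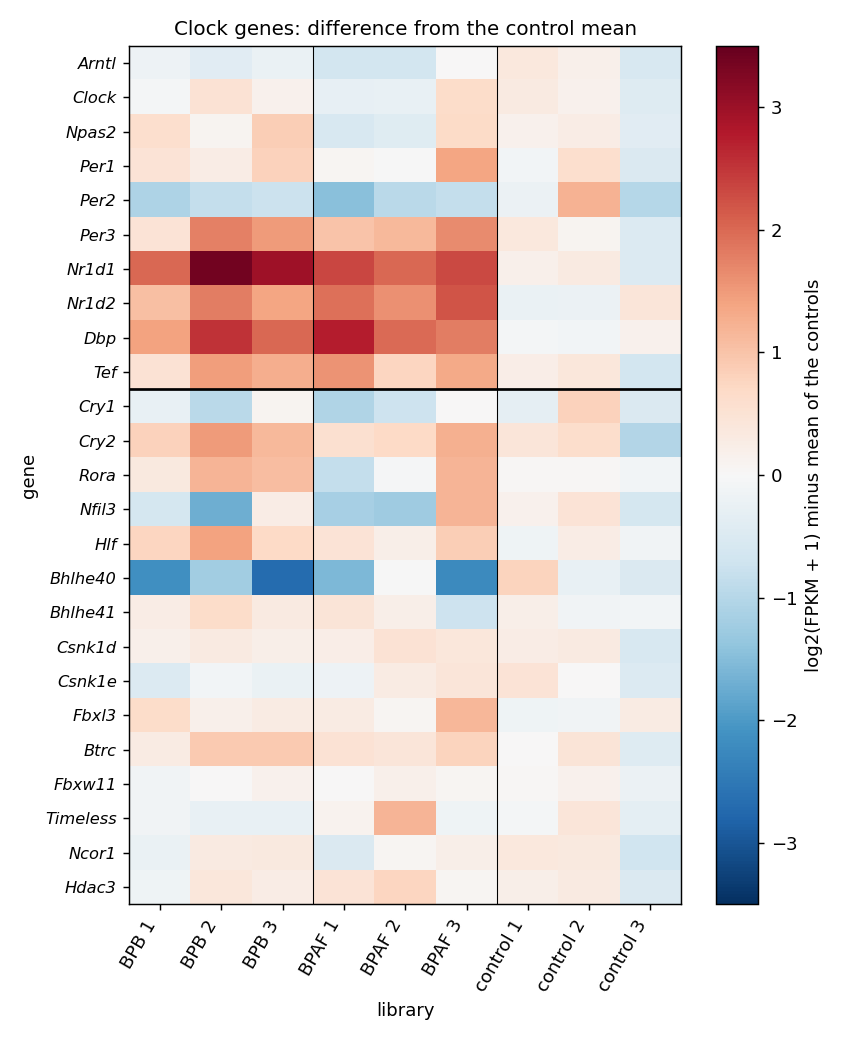
Colour shows log2(FPKM + 1) minus the mean of the 3 controls for the 10 members (above the line) and 15 of the further clock genes (below it) in each library. The band formed by Per3, Nr1d1, Nr1d2, Dbp and Tef is positive in all 6 exposed libraries, and Bhlhe40 is lower in every BPB library than in any control.

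Among 8 listed output genes of the clock, all were tested and none was called by limma in any comparison, with a median difference of 0.13 for BPB and 0.27 for BPAF, beside 0.15 and 0.21 over all genes. At an unadjusted p under 0.05, 1 of the 8 passed for BPB, beside 17.4% of all genes, and 2 for BPAF, beside 12.8%. Usp2, a deubiquitinase with a daily rhythm in many tissues, averaged 1.71 ± 0.97 FPKM in BPB, 2.58 ± 0.78 FPKM in BPAF and 0.64 ± 0.51 FPKM in controls (SD, n = 3 each), with a difference of 0.71 for BPB and 1.15 for BPAF (adjusted p = 0.328 and 0.301, limma). Wee1, a cell cycle kinase gene with E-boxes, differed by 0.73 for BPB and 1.06 for BPAF (adjusted p = 0.499 and 0.405, limma). Cdkn1a, the p21 cell cycle inhibitor gene, differed by 0.077 for BPB (-0.15 under median-ratio scaling) and -1.19 for BPAF (adjusted p = 0.958 and 0.340, limma).

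Glucocorticoid-induced genes were listed because adrenal steroids carry time of day to peripheral clocks. None of 9 was called by limma, with a median difference of 1.13 for BPB and 1.11 for BPAF, beside 0.15 and 0.21 over all genes. The difference was above 0 for 6 of the 9 for BPB and for 7 for BPAF. Over all 13743 genes it was above 0 for 8724 and 9633. The lowest of the list were -0.35 for BPB and -0.20 for BPAF, and the genes named next are among those above 0. At an unadjusted p under 0.05, 5 of the 9 passed for BPB, beside 17.4% of all genes, and 1 for BPAF, beside 12.8%. Zbtb16, a zinc finger gene induced by glucocorticoids and progesterone, had 3.55, 2.27 and 15.3 FPKM in BPB libraries 1, 2 and 3, 3.85, 0.52 and 16.7 FPKM in the BPAF libraries, and 0.62, 1.05 and 0.11 FPKM in the controls. Library 3 was the highest in both exposed groups, and BPAF library 2 lay within the controls. Fkbp5, a co-chaperone of the glucocorticoid receptor, averaged 3.44 ± 1.80 FPKM in BPB, 3.24 ± 1.14 FPKM in BPAF and 1.41 ± 0.66 FPKM in controls (SD, n = 3 each). Tsc22d3, which encodes GILZ and stands in both this list and the output list, differed by 1.42 for BPB and 1.31 for BPAF (adjusted p = 0.285 and 0.415, limma). The metallothionein genes Mt1 and Mt2 differed by 1.23 and 1.60 for BPB (adjusted p = 0.269 and 0.261, limma) and by 1.11 and 1.17 for BPAF (adjusted p = 0.416 and 0.485, limma).

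The genes whose pattern over the 9 libraries was most like that of Nr1d1, by Pearson's r of log2(FPKM + 1), were Plxnb1 (r = 0.979), Cnksr3 (0.977), Def6 (0.977), Dguok (0.975) and Sh3d21 (0.975). Those most like Arntl were Olfml3 (r = 0.953), Lrrc8a (0.934), Luzp1 (0.920), Cdk20 (0.907) and Col15a1 (0.906). These values pool 9 libraries of 3 groups that differ in tissue markers, so they are descriptions and carry no p. Plxnb1, a semaphorin receptor gene, had 7.89, 11.6 and 11.8 FPKM in BPB libraries 1, 2 and 3, 6.62, 7.66 and 7.96 FPKM in the BPAF libraries, and 1.23, 2.34 and 0.920 FPKM in the controls. Olfml3, a secreted matrix protein gene, had 8.33, 7.13 and 9.93 FPKM in BPB, 4.89, 3.35 and 12.2 FPKM in BPAF, and 35.2, 26.6 and 7.37 FPKM in the controls, and like Arntl it was lowest among the controls in library 3.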

How the data were processed

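Poly(A) RNA was sequenced from uterus with a stranded mRNA kit, per the labels. For each library the authors deposited a table of gene symbols and values that names no unit. It was taken to hold FPKM, scaled by the authors, because low values, for genes that have 1 transcript in GENCODE M21 and multiplied by its length, lay within 0.01 of whole multiples of 1 read in 91.4% to 93.1% of cases per library. The aligner, counting tool, genome build, annotation and use of strand are, in the sources used here, not given. Read numbers recovered in this way speak to counting error only.

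Groups came from the sample titles. Symbols that occur more than once were left out, which leaves 34619. Tests used limma 3.58.1 (R 4.3.3) on log2(FPKM + 1), with the trended and robust options, over all 9 libraries in 1 fit with group as the only term. Genes needed 1 FPKM in 3 libraries, and p-values were adjusted by Benjamini-Hochberg over the 13743 genes tested. A log2(FPKM + 1) difference understates the change of low genes. Intervals are 95% intervals of the fit.

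The members and lists were chosen with earlier results of these data known. All members were named, with up to 4 genes per further list by smallest unadjusted p, and Cry1, Cry2, Rora, Ciart and Thra in any case. One gene that this rule names is not reported here. Exon overlaps were read from GENCODE M21 and promoters from RefSeq GRCm38.p6. The labels do not say what a replicate number marks. Same-numbered BPAF and BPB libraries deviated together from their group means (r = 0.343, 0.339 and 0.484 for numbers 1, 2 and 3), which meets the rule set for pairing. The BPAF minus BPB values printed are those of the fit without pairs, with the fit that holds the library number as a block given beside them. For same-numbered BPB and control and same-numbered BPAF and control libraries the correlations were below 0, and these were not treated as pairs. Libraries of different number reached similar values, 0.448 for BPB 1 and control 3, 0.372 for BPB 3 and control 2 and 0.335 for BPB 2 and control 1. Others of different number fell as low as -0.337 (BPB 3 and BPAF 1). Values of this size therefore do not by themselves show that libraries are pairs. Alternatives changed the scaling, pseudocount, filter, variance model and design, or left out libraries.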

Additional observations from a re-analysis of the deposited data

How the results depend on the processing

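Over all alternatives run, the differences of Nr1d1, Nr1d2, Dbp, Tef and Per3 stayed above 0 for BPB and for BPAF against control. These members lay above every control in every exposed library, so only the 3 changes of scaling could have turned their sign. In the other alternatives the sign was fixed beforehand. At the same pseudocount, Nr1d1 ran between 2.49 and 3.17 for BPB and between 1.93 and 2.38 for BPAF. The number of genes called for BPB against control was 351, and 152 and 66 with pseudocounts 0.1 and 0.01, 163 with no filter, and between 0 and 436 without 1 library each. The members called were 3, and between 0 and 3 without 1 library each. They were 2 under each of the 3 other scalings, with either smaller pseudocount, with no filter and in the 6 libraries compared. Calls for BPAF against control were 3, and 1 after rescaling without mitochondrial genes, 0 in the fit of the 6 libraries compared, and between 0 and 2 without 1 library each. With BPAF 2 and 3 against the controls alone there were 0, and 0 with BPAF 1 and control 3 both left out, both settings chosen after seeing the data. For BPAF against BPB the 33 genes became 8 after rescaling without mitochondrial genes, 0 with either smaller pseudocount, 11 with no filter, 1 with a filter on the mean, 0 in the 6 libraries compared, and between 0 and 237 without 1 library each. The causes were not tested.

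With the library number as a replicate block, 19 genes and 0 members were called for BPB against control, 0 genes for BPAF against control, and 0 for BPAF against BPB, also 0 in the 6 libraries alone (added after seeing the data). Under the block the adjusted p for BPB was 0.0558 for Nr1d1, 0.0814 for Nr1d2 and 0.0703 for Dbp. For BPB and BPAF against control the samples share only a number, and no exposed library correlated best with the control of its own number.

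Median-ratio scaling lowered the median over all genes to -0.036 for BPB, against 0.15, and to -0.020 for BPAF, against 0.21. Of the BPB calls, 80.3% were higher, and 65.4% under that scaling and 69.2% under quantile normalization.

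Some small differences changed sign. Clock for BPB was -0.031 under quantile normalization. Clock for BPAF was -0.19 under median-ratio scaling and under quantile normalization, -0.018 after rescaling without mitochondrial genes and -0.038 with BPAF 1 and control 3 both left out. Npas2 for BPAF was 0.11 with BPAF 2 and 3 against the controls alone. Thra for BPAF was -0.050 under median-ratio scaling. Rora for BPAF was -0.052 and -0.16 under the median-ratio and quantile settings, and -0.062 and -0.12 with pseudocounts 0.1 and 0.01. Per3 for BPAF against BPB was -0.036 under median-ratio scaling and -0.041 after rescaling without mitochondrial genes. Cdkn1a for BPB was -0.15 under median-ratio scaling. Without 1 library each, Clock ran between -0.040 and 0.34 for BPB, between -0.27 and 0.19 for BPAF and between -0.46 and 0.0021 for BPAF against BPB. Npas2 ran between -0.50 and 0.11 and Rora between -0.43 and 0.58 for BPAF, and Cry1 between -0.62 and 0.035 and Cdkn1a between -0.048 and 0.19 for BPB. For BPAF against BPB the ranges were -0.50 to 0.20 for Per1, -0.31 to 0.0021 for Per2, -0.37 to 0.27 for Per3, -0.095 to 0.46 for Dbp and -0.15 to 0.37 for Tef.

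The within-library summary of repressors and outputs minus activators moved in the controls: to -1.11 in control 1 and -0.91 in control 3 with pseudocount 0.1, and to -1.14, -0.73 and -1.01 in controls 1, 2 and 3 with pseudocount 0.01.

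By the smallest read numbers that fit its values, Per3 had as few as 30 reads in a control library, the fewest of the 5 separated members.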
